A study of Homo sapiens with 4 samples.

Results

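Interferon-stimulated genes are the genes that cells turn on when they sense interferon, and 50 of them, given by symbol, were followed in cells depleted of the RNA helicase DDX24. Of the 50, 48 were listed in the count table of SiHa cells and 43 in that of MS751 cells, against 12189 and 12036 genes in all, and every member listed in MS751 was also listed in SiHa. IFI27 and EPSTI1 were in neither table, and IFI44, IFI44L, MX2, PARP12 and TRIM22 were listed for SiHa alone. The tables hold only genes above 1 CPM (a gene's counts scaled to a common library total) in both libraries of their line, so a member silenced in either library would not be seen.

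The study transfected SiHa and MS751, established lines of human cervical carcinoma, with siDDX24-1, a small interfering RNA against the DDX24 transcript (genotype given as DDX24 knockdown), or with the control siRNA siControl (genotype given as WT), and took RNA on day 2. The 4 groups were SiHa siDDX24-1, SiHa siControl, MS751 siDDX24-1 and MS751 siControl, each with 1 library. All libraries came from cells that received siRNA with a lipid reagent, and 1 siRNA sequence stood for the knockdown. No group had a replicate, so a difference within a line has no replicate check and carries no p-value.

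Type I and type III interferons bind receptors whose kinases activate transcription factors, STAT2 among them. STAT2 and IRF9 are parts of the complex ISGF3, which binds interferon-stimulated response elements in promoters. The products act at many steps of virus replication: IFITM proteins hinder entry, IFIT proteins bind foreign RNA, oligoadenylate synthetases activate RNase L on sensing double-stranded RNA, and ISG15 is attached to other proteins. Tumour cell lines differ in how much of this programme they express without added interferon.

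The promoters are shown because the response element is the sequence through which most members are known to be switched on. RefSeq promoters on GRCh38.p14, from 250 bases before to 50 bases after the annotated start, were matched by symbol for 43 of the 50 members. The core GAAANNGAAA, searched on both strands, lay in 27 of the 43 (62.8%), against 996 of 27305 promoters in the whole table (3.65%). The longer core GAAANNGAAAC lay in 20 (46.5%), against 0.798% of all promoters. The gamma-activated site TTCNNNGAA, a motif of the response to interferon gamma, which reads the same on both strands, lay in 12 (27.9%), against 7.88% of all promoters. In 4 members, among them IFITM1, such a site overlapped a core, and in 4, among them ISG15, 2 cores overlapped each other. Below are the promoters of IFITM1 at chr11:313790-314089 (plus strand) and its neighbour IFITM3 at chr11:320811-321110 (minus strand), of IFI6 at chr1:27672143-27672442 (minus strand), of ISG15 at chr1:1013247-1013546 (plus strand), of IFIT1 at chr10:89392373-89392672 (plus strand) and of NMI at chr2:151289619-151289918 (minus strand), each written along its own gene's strand with the core, read on either strand, in capitals. They were chosen after the values were seen: the first and the second are close paralogs with unlike folds, the next 3 were lower in both lines, and NMI was higher in both.
IFITM1: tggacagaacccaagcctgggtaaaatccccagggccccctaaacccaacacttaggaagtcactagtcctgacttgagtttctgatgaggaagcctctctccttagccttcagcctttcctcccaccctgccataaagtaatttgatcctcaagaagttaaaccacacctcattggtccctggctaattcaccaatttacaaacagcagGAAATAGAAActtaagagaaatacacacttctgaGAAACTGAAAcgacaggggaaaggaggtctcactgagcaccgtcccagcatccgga
IFITM3: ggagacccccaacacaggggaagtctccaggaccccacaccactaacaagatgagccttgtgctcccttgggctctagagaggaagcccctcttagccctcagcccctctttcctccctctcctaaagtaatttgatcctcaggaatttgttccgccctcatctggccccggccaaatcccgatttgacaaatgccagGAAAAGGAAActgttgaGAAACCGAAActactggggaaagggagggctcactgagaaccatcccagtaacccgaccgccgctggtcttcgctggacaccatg
IFI6: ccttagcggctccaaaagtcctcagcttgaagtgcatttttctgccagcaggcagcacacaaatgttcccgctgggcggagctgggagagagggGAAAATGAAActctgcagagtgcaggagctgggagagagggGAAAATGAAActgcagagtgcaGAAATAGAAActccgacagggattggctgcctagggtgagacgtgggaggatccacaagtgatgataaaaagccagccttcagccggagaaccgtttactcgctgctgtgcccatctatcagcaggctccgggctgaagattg
ISG15: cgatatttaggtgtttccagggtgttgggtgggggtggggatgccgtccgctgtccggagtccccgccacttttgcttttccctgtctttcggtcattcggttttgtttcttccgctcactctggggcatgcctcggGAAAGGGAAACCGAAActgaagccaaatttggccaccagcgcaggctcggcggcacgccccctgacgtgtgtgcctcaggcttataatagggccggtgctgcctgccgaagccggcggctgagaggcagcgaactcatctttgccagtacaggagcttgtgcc
IFIT1: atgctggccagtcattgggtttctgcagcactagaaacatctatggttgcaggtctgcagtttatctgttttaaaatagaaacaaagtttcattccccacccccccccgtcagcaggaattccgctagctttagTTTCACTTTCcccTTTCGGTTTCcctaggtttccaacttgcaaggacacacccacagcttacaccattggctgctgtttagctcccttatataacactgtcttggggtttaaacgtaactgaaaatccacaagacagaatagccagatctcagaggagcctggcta
NMI: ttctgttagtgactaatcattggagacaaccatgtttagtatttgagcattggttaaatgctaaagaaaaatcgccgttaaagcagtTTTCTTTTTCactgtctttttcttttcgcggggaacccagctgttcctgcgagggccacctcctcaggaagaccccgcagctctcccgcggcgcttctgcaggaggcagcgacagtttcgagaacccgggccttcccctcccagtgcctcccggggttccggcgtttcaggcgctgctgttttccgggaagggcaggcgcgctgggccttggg
IFI6 carried 3 cores, the nearest 93 bases before the start, and IFITM1 carried 2, at 40 and 6 bases before it. IFITM3 carried 2 as well, at 52 and 35 bases. NMI carried 1, 163 bases before the start and read on the opposite strand, as were both cores of IFIT1. A match is a description of letters and does not show binding.

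Sequencing depth was 20116334 counts in SiHa siDDX24-1, 17706636 in SiHa siControl, 14663145 in MS751 siDDX24-1 and 13159701 in MS751 siControl. DDX24 had 575 counts with siDDX24-1 and 3464 with siControl in SiHa (log2 fold -2.71), and 993 counts with siDDX24-1 and 2072 with siControl in MS751 (log2 fold -1.20), so both knockdown libraries matched their label. The SiHa table listed 9 of 13 squamous and epithelial markers and the MS751 table listed 5 (median log2 folds -0.18 and -0.51), and 4 and 5 of 8 fibroblast markers (median log2 folds -0.38 and 0.16, with COL1A1 at -1.16 in SiHa and -1.86 in MS751). KRT5, KRT6A, KRT14 and TP63 were in neither table, and KRT7, KRT17, KRT19 and CDH1 were listed for SiHa alone. Levels of some markers differed widely between the siControl libraries of the lines. KRT8 had 1630 CPM in SiHa and 31.4 CPM in MS751, and COL3A1 had 3.22 and 364 CPM. EPCAM was similar, at 13.2 and 11.7 CPM. Of 15 leukocyte markers SiHa listed CD14 and CD68 and MS751 listed CD68, and PTPRC was in neither table. The part of these markers in the members' folds was not tested. Folds were lower at higher transcript GC content across genes in both lines (Spearman's rho -0.34 and -0.37 over 12167 and 12016 genes, as a description). The members' median GC content, 48.9% in SiHa and 49.7% in MS751, was near that of all genes (49.4% and 49.5%). Single members ranged from 36.1% (SAMD9) to 66.4% (HELZ2), so a similar median does not set the trend aside for single folds.

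In SiHa nearly the whole set was lower with siDDX24-1. Of 48 members 46 had log2 folds (siDDX24-1 over siControl, after scaling between libraries) below 0, and 19 were at least 2-fold lower, with none 2-fold higher. Among all SiHa genes 3.05% were at least 2-fold lower, 1.46% at least 2-fold higher, and 50.4% had folds below 0. The median log2 fold was -0.81 for the members and 0.00 for all genes. For 45 of the 48 the 95% counting interval, which covers counting error only, lay below 0, as it did for 30% of all genes. It lay above 0 for NMI and IFITM2, as for 30.2% of all genes, and across 0 for UBE2L6. The members took 0.323% of the counts with siDDX24-1 and 0.502% with siControl. In bulk RNA, fewer cells expressing a gene and less RNA per cell cannot be told apart.

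In MS751 the set was mixed. Of 43 members 27 had folds below 0 and the median log2 fold was -0.17, against 0.00 for all genes. There were 5 members at least 2-fold lower (IFITM1, OASL, IFI6, ISG20 and IRF9) and 1 at least 2-fold higher (HERC6). That is against 8.55% and 3.74% of all MS751 genes, so the share of members past 2-fold was near that of all genes. With the trend of fold on GC content removed 2 members were at least 2-fold lower, and 3 without the members whose exons overlap another coding gene. Counting intervals lay below 0 for 20 members and above 0 for 12, against 36.1% and 36.4% of all genes. The members took 0.325% of the counts with siDDX24-1 and 0.342% with siControl.

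**Figure D1:**
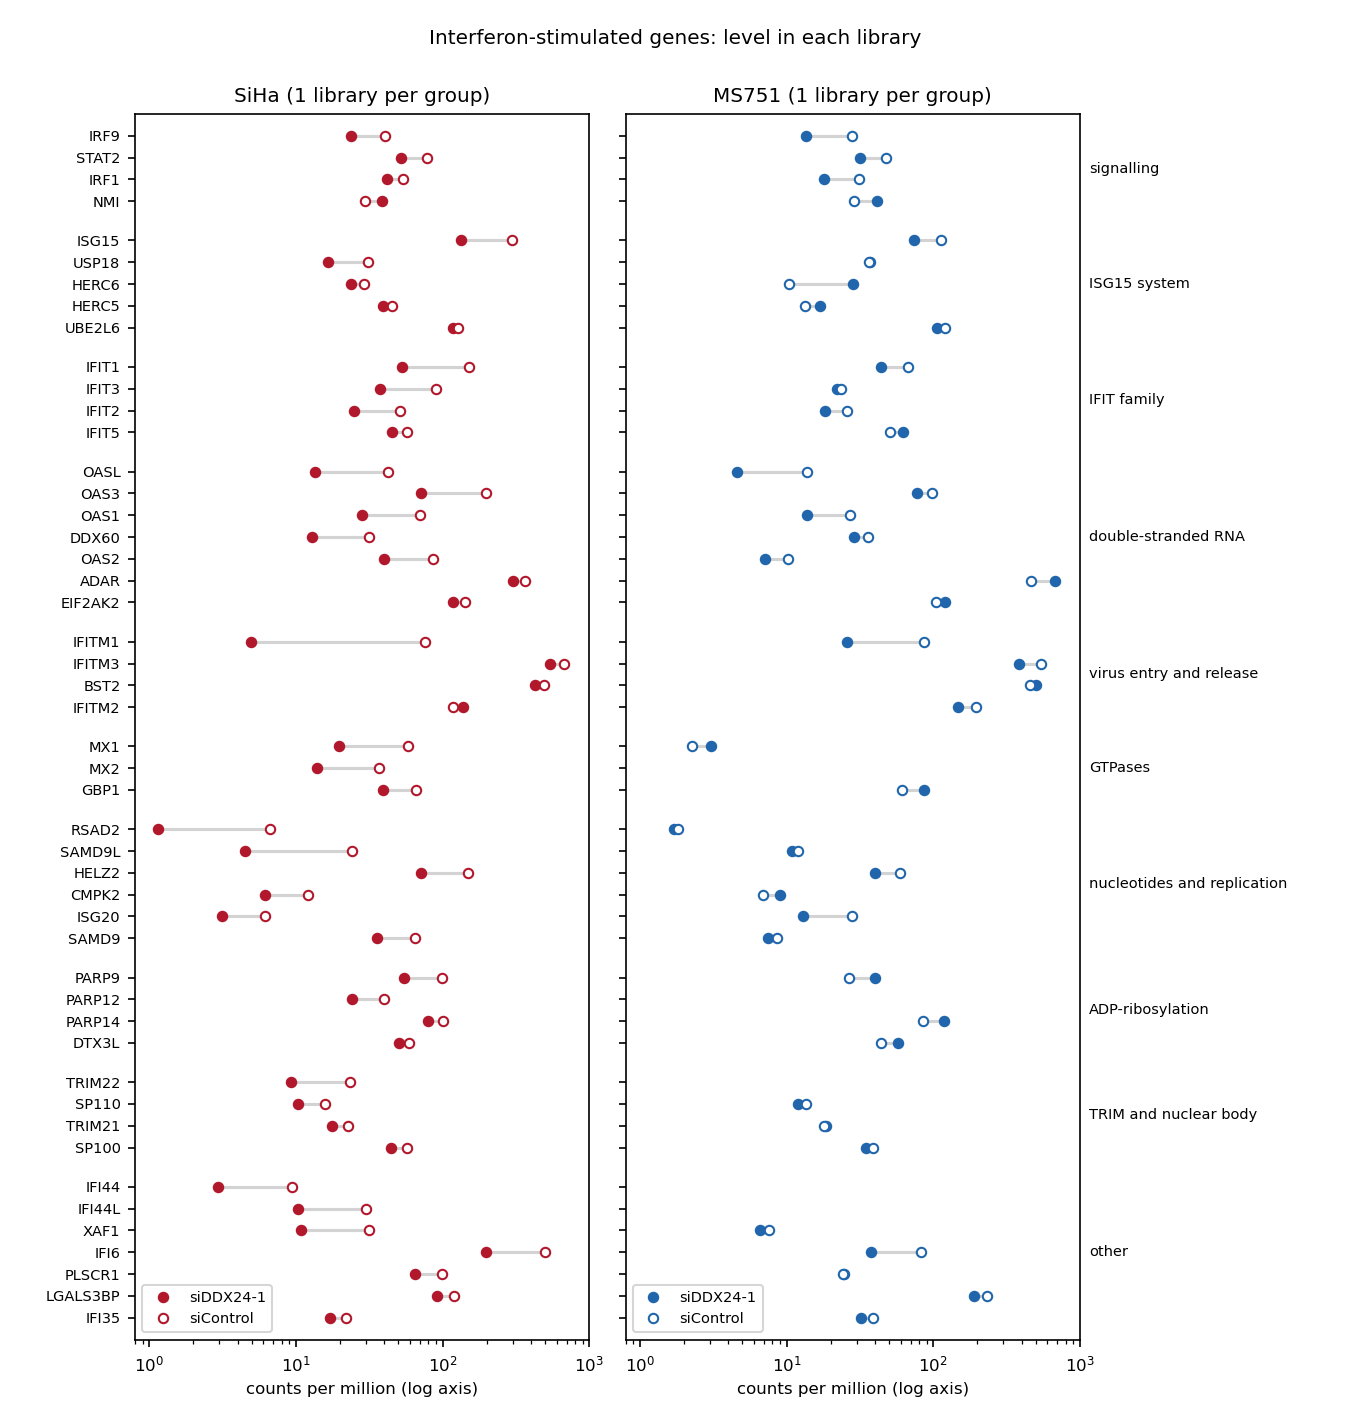
Level of each listed member in CPM on a log axis, in SiHa (left, 48 genes) and MS751 (right, 43 genes), with filled points for siDDX24-1, open points for siControl and 1 library per group. In SiHa the filled points lie left of the open ones except for NMI and IFITM2; in MS751 they lie on either side.

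**Figure D2:**
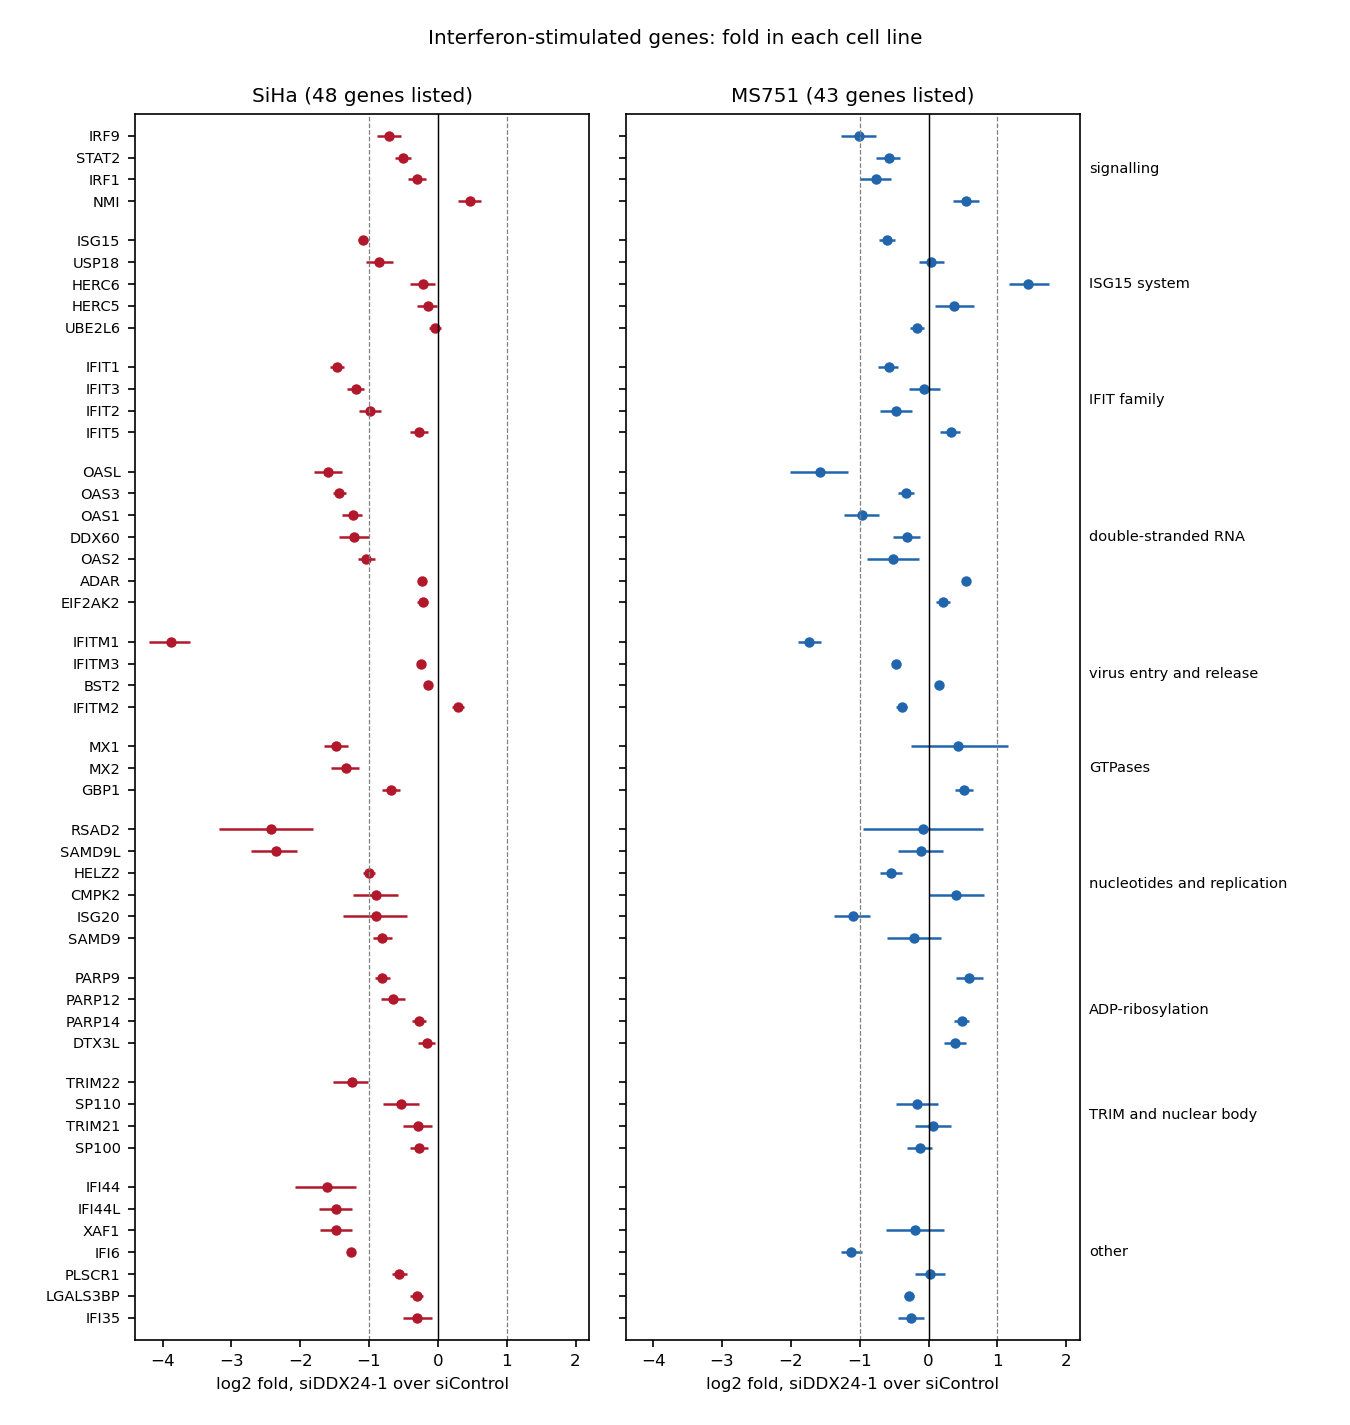
Log2 fold of each listed member, siDDX24-1 over siControl, in SiHa (left) and MS751 (right), grouped by role, where bars are 95% counting intervals and dashed lines mark 2-fold. In SiHa 19 members lie at or beyond the lower dashed line and none beyond the upper one; in MS751 5 and 1 do.

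The signalling members had modest folds with the same sign in both lines. IRF9, the DNA-binding subunit of ISGF3, had 474 counts with siDDX24-1 and 711 with siControl in SiHa (log2 fold -0.71, 95% interval -0.88 to -0.54). The MS751 libraries held 200 IRF9 counts with siDDX24-1 and 366 with siControl (log2 fold -1.01, 95% interval -1.27 to -0.76), just past 2-fold, and -0.83 with the trend on GC content removed. Its exons overlap those of another coding gene. The sources used here state neither how reads at such positions nor how strands were counted, so genes that overlap on opposite strands cannot be told apart. STAT2, its partner, had 1053 counts with siDDX24-1 and 1378 with siControl in SiHa (log2 fold -0.51) and 463 counts with siDDX24-1 and 629 with siControl in MS751 (log2 fold -0.58). IRF1, a transcription factor induced mainly by interferon gamma, had log2 folds of -0.30 and -0.77, and its exons overlap a gene on the opposite strand. NMI, a protein that binds STAT and MYC family factors, was the exception, higher with siDDX24-1 in both lines: 777 counts with siDDX24-1 and 520 with siControl in SiHa (log2 fold 0.46), and 605 counts with siDDX24-1 and 376 with siControl in MS751 (log2 fold 0.54). It was the 1 member with a fold above 0 in both lines.

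Of the ISG15 system, the modifier itself was at least 2-fold lower in SiHa, and none of the other members (USP18, UBE2L6, HERC5 and HERC6) was in either line. ISG15 had 2671 counts with siDDX24-1 and 5225 with siControl in SiHa (log2 fold -1.09, 95% interval -1.16 to -1.02), and 1082 counts with siDDX24-1 and 1488 with siControl in MS751 (log2 fold -0.60). ISG15 transcripts are GC-rich (64%), and with the GC trend removed its log2 folds were -0.80 and -0.05, so the call in SiHa ended. USP18, which removes ISG15 and restrains receptor signalling, had log2 folds of -0.85 in SiHa, or -0.82 with the GC trend removed, and 0.03 in MS751. UBE2L6, the conjugating enzyme, had log2 folds of -0.04 and -0.17. HERC5, the main human ISG15 ligase, had 787 counts with siDDX24-1 and 804 with siControl in SiHa (log2 fold -0.15), and 250 counts with siDDX24-1 and 175 with siControl in MS751 (log2 fold 0.37). HERC6, its neighbour on chromosome 4, had 477 counts with siDDX24-1 and 511 with siControl in SiHa (log2 fold -0.22). In MS751 HERC6 had 415 counts with siDDX24-1 and 137 with siControl (log2 fold 1.45, 95% interval 1.17 to 1.75), the highest fold of any member in either line.

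Of the 4 neighbours in the IFIT cluster on chromosome 10, IFIT1, IFIT2 and IFIT3 were clearly lower in SiHa and IFIT5 slightly so. IFIT1, which binds RNA lacking the host cap, had 1060 counts with siDDX24-1 and 2695 with siControl (log2 fold -1.47, 95% interval -1.57 to -1.37). IFIT3, which stabilises IFIT1, had 759 counts with siDDX24-1 and 1595 with siControl (log2 fold -1.19). IFIT2, a partner of both, had 502 counts with siDDX24-1 and 909 with siControl (log2 fold -0.98), just outside 2-fold. With the GC trend removed IFIT2 was at -1.07, past 2-fold. IFIT5, which binds other RNA ends, had 913 counts with siDDX24-1 and 1013 with siControl (log2 fold -0.27). In MS751 IFIT1 had 650 counts with siDDX24-1 and 883 with siControl (log2 fold -0.58), IFIT2 had a log2 fold of -0.47, IFIT3 had 326 counts with siDDX24-1 and 308 with siControl (log2 fold -0.06, with an interval across 0), and IFIT5 had 916 counts with siDDX24-1 and 666 with siControl (log2 fold 0.32). The order of the 4 folds thus had IFIT1 lowest and IFIT5 highest in both lines. Exons of IFIT2 overlap LIPA on the opposite strand.

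The genes that sense or act on double-stranded RNA did not all move alike. In SiHa all 7 were lower, and 5 were at least 2-fold lower: OASL, OAS3, OAS1, DDX60 and OAS2. OASL, a synthetase-like protein that boosts RIG-I signalling, had 272 counts with siDDX24-1 and 756 with siControl (log2 fold -1.59, 95% interval -1.80 to -1.40). OAS3, which makes the longest oligoadenylates, had 1431 counts with siDDX24-1 and 3532 with siControl (log2 fold -1.43), and OAS1 had 571 counts with siDDX24-1 and 1243 with siControl (log2 fold -1.24). OAS2 had 804 counts with siDDX24-1 and 1517 with siControl (log2 fold -1.04) and the helicase gene DDX60 had 259 counts with siDDX24-1 and 554 with siControl (log2 fold -1.22). OAS1, OAS2 and OAS3 are neighbours on chromosome 12, with OASL on the same chromosome further on. ADAR, which edits adenosine to inosine, had 6036 counts with siDDX24-1 and 6490 with siControl (log2 fold -0.23). EIF2AK2, the kinase PKR that halts translation, had 2358 counts with siDDX24-1 and 2521 with siControl (log2 fold -0.22).

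In MS751 the synthetases, the synthetase-like OASL and the helicase gene DDX60 were again lower, and ADAR and EIF2AK2 were not. OASL had 67 counts with siDDX24-1 and 182 with siControl (log2 fold -1.57, 95% interval -2.01 to -1.17), nearly the fold seen in SiHa. OAS1 had 201 counts with siDDX24-1 and 358 with siControl (log2 fold -0.97), OAS2 104 counts with siDDX24-1 and 135 with siControl (log2 fold -0.52), and OAS3 1128 counts with siDDX24-1 and 1284 with siControl (log2 fold -0.33). DDX60 had 420 counts with siDDX24-1 and 474 with siControl (log2 fold -0.32). ADAR had 9927 counts with siDDX24-1 and 6143 with siControl (log2 fold 0.55, 95% interval 0.50 to 0.60), and EIF2AK2 had 1769 counts with siDDX24-1 and 1386 with siControl (log2 fold 0.21, or 0.02 with the GC trend removed). Exons of EIF2AK2 overlap GPATCH11 on the opposite strand.

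Among genes of virus entry and release, IFITM1 stood apart from its paralogs. IFITM1 (ENSG00000185885) spans bases 313506 to 315272 of chromosome 11 in GRCh38. SiHa had 99 IFITM1 counts (4.92 CPM) with siDDX24-1 and 1353 (76.4 CPM) with siControl, which is 14.7-fold lower (log2 fold -3.88, counting interval -4.20 to -3.60). MS751 had 380 (25.9 CPM) with siDDX24-1 and 1143 (86.9 CPM) with siControl, a log2 fold of -1.73 (counting interval -1.90 to -1.56). It was the lowest member in both lines. IFITM2 had 2760 counts with siDDX24-1 and 2067 with siControl in SiHa (log2 fold 0.29), and 2154 counts with siDDX24-1 and 2557 with siControl in MS751 (log2 fold -0.39). IFITM3, which blocks entry from endosomes, had 10902 counts with siDDX24-1 and 11903 with siControl in SiHa (log2 fold -0.25) and 5644 counts with siDDX24-1 and 7081 with siControl in MS751 (log2 fold -0.47). With the GC trend removed IFITM3 was at -0.05 and -0.13. The annotated exons of IFITM2 overlap those of IFITM1, and the 3 genes are close in sequence, so reads could be assigned between them and their separate folds are uncertain. BST2, or tetherin, which holds budding virus at the surface, had 8625 counts with siDDX24-1 and 8700 with siControl in SiHa (log2 fold -0.14, or 0.01 with the GC trend removed) and 7371 counts with siDDX24-1 and 6030 with siControl in MS751 (log2 fold 0.15).

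The antiviral GTPases were lower in SiHa and not in MS751. MX1 had 399 counts with siDDX24-1 and 1024 with siControl in SiHa (log2 fold -1.48), and its neighbour MX2 had 279 counts with siDDX24-1 and 649 with siControl (log2 fold -1.34). GBP1, which attacks vacuoles of intracellular microbes, had 794 counts with siDDX24-1 and 1169 with siControl (log2 fold -0.68). In MS751 MX1 had few reads, with 45 counts with siDDX24-1 and 30 with siControl (log2 fold 0.43 with an interval from -0.26 to 1.16), and GBP1 had 1272 counts with siDDX24-1 and 807 with siControl (log2 fold 0.51, 95% interval 0.39 to 0.64).

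Genes that act on nucleotide pools and replication held the next lowest folds of SiHa. RSAD2, or viperin, which makes a chain-terminating nucleotide, had 23 counts (1.14 CPM) with siDDX24-1 and 117 (6.61 CPM) with siControl (log2 fold -2.42, 95% interval -3.18 to -1.82). SAMD9L, an inhibitor of growth and of poxviruses, had 91 counts with siDDX24-1 and 431 with siControl (log2 fold -2.35, 95% interval -2.71 to -2.04), while its neighbour and paralog SAMD9 had 714 counts with siDDX24-1 and 1148 with siControl (log2 fold -0.81). HELZ2, a helicase, was the member just inside 2-fold, with 1435 counts with siDDX24-1 and 2638 with siControl, and its log2 fold was -0.66 with the GC trend removed. CMPK2, a mitochondrial nucleotide kinase next to RSAD2, had 123 counts with siDDX24-1 and 212 with siControl (log2 fold -0.90). ISG20, an exonuclease, had 63 counts with siDDX24-1 and 109 with siControl (log2 fold -0.90). Exons of RSAD2 and CMPK2 overlap on opposite strands, so their counts are less certain.

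In MS751 ISG20 had the lowest fold of this group. RSAD2 had 25 counts with siDDX24-1 and 24 with siControl and SAMD9L had 160 counts with siDDX24-1 and 157 with siControl, with log2 folds of -0.08 and -0.11 and intervals across 0. SAMD9 had 109 counts with siDDX24-1 and 114 with siControl (log2 fold -0.21). ISG20 had 189 counts with siDDX24-1 and 368 with siControl (log2 fold -1.10, 95% interval -1.37 to -0.85), or -0.86 with the GC trend removed. HELZ2 had 590 counts with siDDX24-1 and 778 with siControl (log2 fold -0.54, or 0.13 with the GC trend removed), and CMPK2 had 133 counts with siDDX24-1 and 91 with siControl (log2 fold 0.40, 95% interval 0.01 to 0.81).

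The genes of ADP-ribosylation listed for both lines had folds below 0 in SiHa and above 0 in MS751. PARP9, which with DTX3L modifies histones and viral proteins, had 1096 counts with siDDX24-1 and 1760 with siControl in SiHa (log2 fold -0.81), and 587 counts with siDDX24-1 and 352 with siControl in MS751 (log2 fold 0.59). PARP14, a mono-ADP-ribosyltransferase, had 1610 counts with siDDX24-1 and 1785 with siControl in SiHa (log2 fold -0.27) and 1726 counts with siDDX24-1 and 1118 with siControl in MS751 (log2 fold 0.48). DTX3L, a ubiquitin ligase, had 1018 counts with siDDX24-1 and 1046 with siControl in SiHa (log2 fold -0.16) and 838 counts with siDDX24-1 and 580 with siControl in MS751 (log2 fold 0.39). These 3 genes lie near each other on chromosome 3, and exons of PARP9 and DTX3L overlap on opposite strands. PARP12 was listed for SiHa alone, with 488 counts with siDDX24-1 and 702 with siControl (log2 fold -0.65). None passed 2-fold.

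Of the TRIM and nuclear body genes, TRIM22, a ubiquitin ligase with antiviral activity, had 187 counts with siDDX24-1 and 411 with siControl in SiHa (log2 fold -1.25), and its exons overlap OR56B1. TRIM21, the cytosolic antibody receptor, had log2 folds of -0.29 in SiHa and 0.06 in MS751. The nuclear body proteins SP100 and SP110 had log2 folds of -0.28 and -0.54 in SiHa, and -0.13 and -0.17 in MS751, and exons of SP110 overlap SP140 on the opposite strand. In MS751 all 3 listed members of this group had intervals across 0.

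The remaining members included several with low folds in SiHa. IFI6, a protein that limits flavivirus replication, had 4004 counts with siDDX24-1 and 8825 with siControl in SiHa (log2 fold -1.26, 95% interval -1.32 to -1.21). The MS751 libraries held 553 IFI6 counts with siDDX24-1 and 1088 with siControl (log2 fold -1.12, 95% interval -1.27 to -0.97, or -0.94 with the GC trend removed). IFI6, IFITM1 and OASL were the 3 members at least 2-fold lower in both lines, of 43, against 0.9% of the genes in both tables. In SiHa IFI44 had 59 counts with siDDX24-1 and 167 with siControl (log2 fold -1.61). The adjacent gene IFI44L had 208 counts with siDDX24-1 and 535 with siControl (log2 fold -1.48). XAF1, which promotes apoptosis, had 218 counts with siDDX24-1 and 559 with siControl in SiHa (log2 fold -1.48), and 96 counts with siDDX24-1 and 100 with siControl in MS751 (log2 fold -0.20). PLSCR1, a membrane scramblase, had log2 folds of -0.56 and 0.02, IFI35 of -0.30 and -0.25, and the secreted glycoprotein gene LGALS3BP of -0.31 and -0.28. With the GC trend removed the log2 folds of IFI35 were -0.12 in SiHa and 0.03 in MS751, and those of LGALS3BP were -0.06 and 0.16.

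Set side by side over the 43 members in both tables, the fold was lower in SiHa than in MS751 for 36, as it was for 53.2% of all 11112 shared genes. The median difference, SiHa minus MS751, was -0.52 for the members and -0.04 for all shared genes. Folds were below 0 in both lines for 26 members, against 31.4% of all shared genes, and 15 members were below 0 in SiHa and not in MS751, against 18.4% of all shared genes. The counting interval lay below 0 in SiHa and above 0 in MS751 for 11 members, against 5.98% of all shared genes, and the other way round for 1, IFITM2, against 6.23%. Spearman's rho between the lines was 0.47 across the 43 members and 0.38 across the 11112 genes, a description across genes, which are not independent replicates. With 1 library per group the difference between the lines was not tested. DDX24 itself fell further in SiHa (log2 fold -2.71) than in MS751 (-1.20), so cell line and depth of knockdown cannot be told apart.

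**Figure D3:**
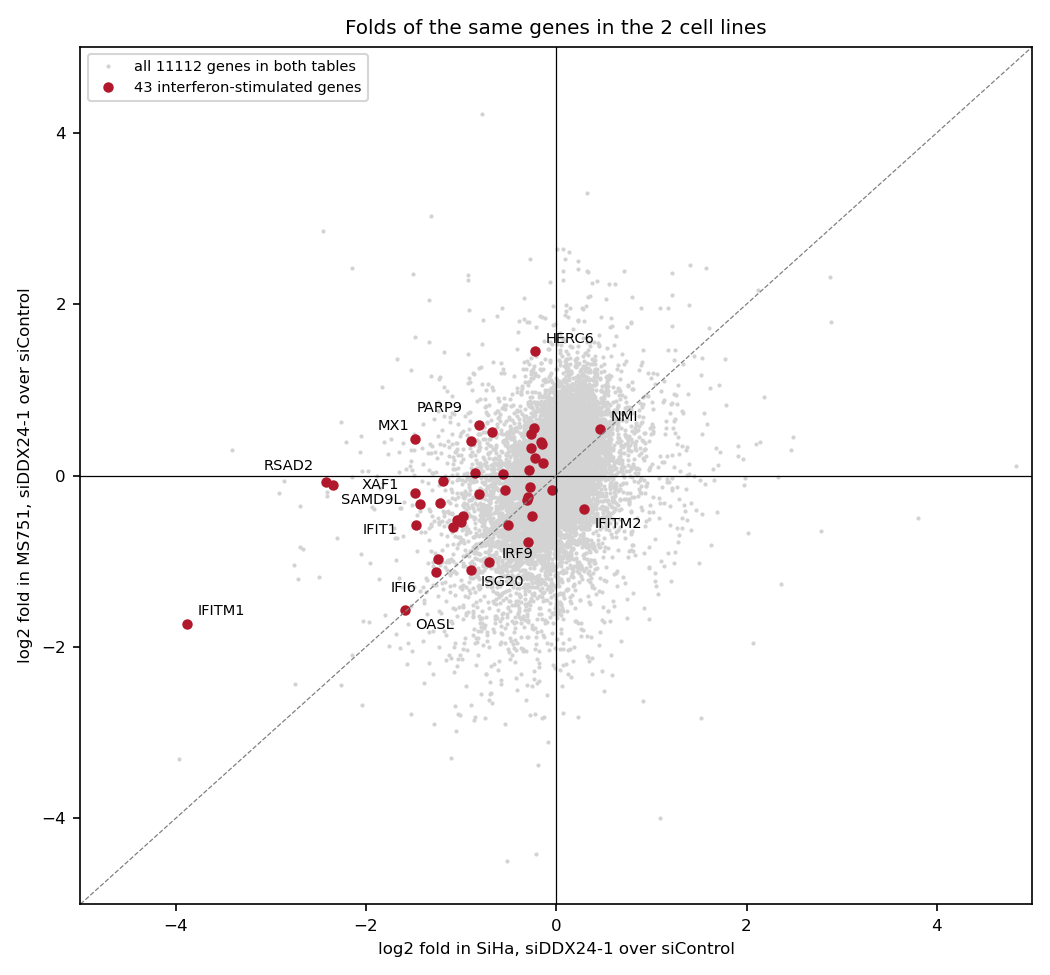
Log2 fold in MS751 (vertical) against log2 fold in SiHa (horizontal) for 43 interferon-stimulated genes (red, some named) and all 11112 shared genes (grey), with a dashed line of equal folds. Of the red points 36 lie above the dashed line, where the SiHa fold is the lower one, and IFITM1, OASL and IFI6 are below -1 on both axes.

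A shift shared by SiHa and MS751 was sought with edgeR's quasi-likelihood test on the 11112 genes in both tables, with cell line as the block. No member passed a Benjamini-Hochberg adjusted p of 0.05 in either direction, against 0.027% of all genes called lower and 0.018% called higher. Unadjusted p-values under 0.05 were found for 16 members, all lower, and for 8.3% of all genes in that direction and 4.34% in the other. OASL had a common log2 fold of -1.61 (SE 0.27, adjusted p = 0.163 by edgeR's quasi-likelihood test), IFI6 of -1.21 (SE 0.21, adjusted p = 0.167) and IFITM1 of -2.79 (SE 0.49, adjusted p = 0.167), each lower in both lines. DDX24 itself, the target, had an adjusted p of 0.171 in this edgeR test. DESeq2 called 0.639% of all shared genes lower and 0.234% higher, these 3 members among the lower ones, with adjusted p = 1.8e-07 for IFITM1, 0.00225 for IFI6 and 0.00485 for OASL, and limma-trend called none. The labels do not say whether cultures were separate. With cell line as the block, these p-values rest on how far the fold differed between the lines, and not on the spread between cultures.

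At baseline, in the siControl libraries, most members were higher in SiHa than in MS751. The SiHa baseline and the SiHa folds use the same siControl library, so they are not separate results. A high value in that library alone would raise the baseline and lower the folds. The members' share of counts was 0.502% there, and between 0.323% and 0.342% in every other library. Whether that library was unusual was not tested, since it has no replicate. The median log2 level of SiHa over MS751 was 0.77 for the 43 members and 0.02 for all shared genes. There were 19 members at least 2-fold higher in SiHa and 1 at least 2-fold lower, against 14.6% and 15% of all shared genes. MX1 had 57.8 CPM in SiHa and 2.28 CPM in MS751 (log2 level 4.73, 95% counting interval 4.20 to 5.30). OAS2 had 85.7 CPM in SiHa and 10.3 CPM in MS751 (log2 level 3.12). SAMD9 had 64.8 CPM in SiHa and 8.66 CPM in MS751 (2.97), and IFI6 had 498 CPM in SiHa and 82.7 CPM in MS751 (2.65). ISG20 was the exception in the other direction, with 6.16 CPM in SiHa and 28.0 CPM in MS751 (log2 level -2.12). IFITM1, the member with the lowest fold in both lines, started at similar levels, 76.4 CPM in SiHa and 86.9 CPM in MS751.

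**Figure D4:**
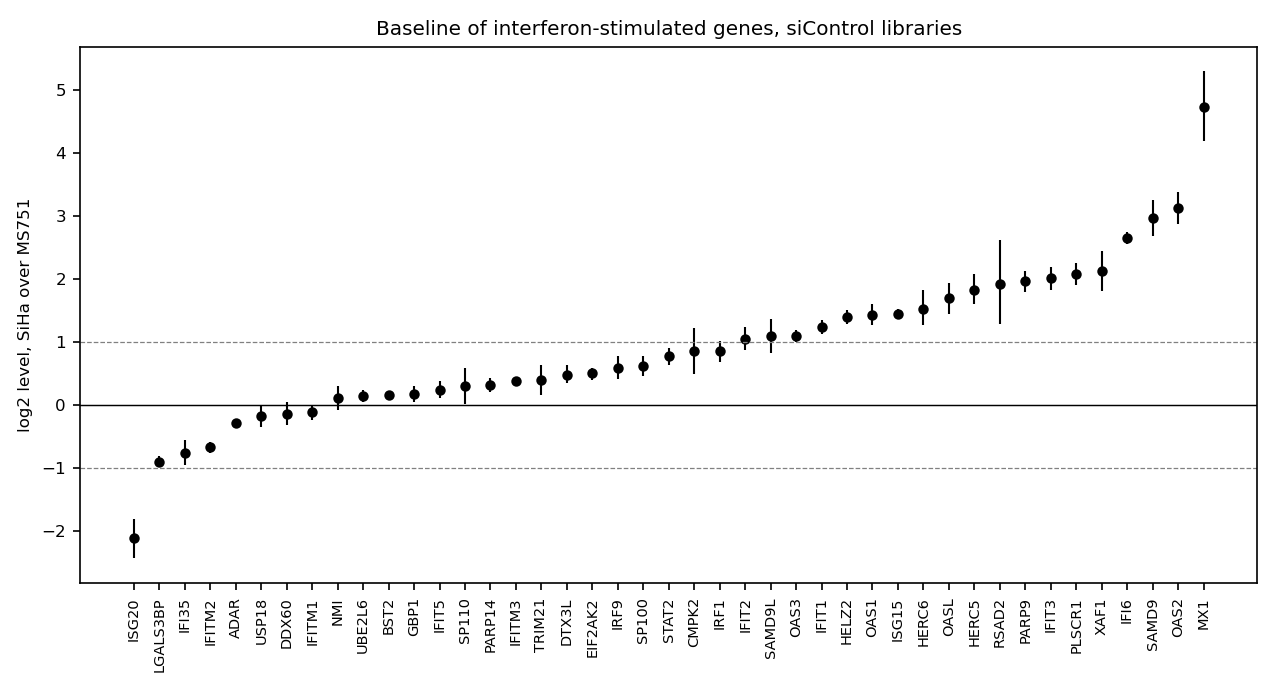
Log2 level in SiHa over MS751 in the siControl libraries for the 43 members listed in both tables, ordered from low to high, with 95% counting intervals as bars and dashed lines at 2-fold. ISG20 lies at -2.12 and MX1 at 4.73, and 35 of the 43 points lie above 0.

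The line term of the same edgeR fit, which takes both libraries of each line, called 18 members higher and 3 lower in SiHa at an adjusted p of 0.05, against 17.9% and 17.6% of all shared genes. MX1 had a log2 difference of 3.75 (SE 0.47, adjusted p = 0.001 by edgeR), OAS2 of 2.87 (SE 0.26, adjusted p = 0.000271 by edgeR), SAMD9 of 2.67 (SE 0.27, adjusted p = 0.000424 by edgeR) and IFI6 of 2.59 (SE 0.21, adjusted p = 0.000172 by edgeR). The 3 lower in SiHa were ISG20 (-2.02), LGALS3BP (-0.91) and IFI35 (-0.77). In this term the siDDX24-1 and siControl libraries of a line stand in for replicates. Its p-values therefore do not measure the spread between cultures of a line. The term also averages over both treatments and is not the baseline: MX1 was at 4.73 in the siControl libraries alone. With siDDX24-1 the median log2 level of SiHa over MS751 was 0.08 for the members and 0.00 for all shared genes. In these libraries 9 members were at least 2-fold higher in SiHa and 7 at least 2-fold lower, against 14.3% and 14.4% of all shared genes.

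Per kilobase of merged exon, which allows genes to be compared, the order of the most abundant members differed between lines. In SiHa siControl the highest levels were those of IFI6 (576 CPM per kilobase), IFITM3 (499), BST2 (439) and ISG15 (313). In MS751 siControl they were those of BST2 (409 CPM per kilobase), IFITM3 (399), IFITM2 (126) and ISG15 (120), with IFI6 at 95.6. The first and the second in MS751 are close and have no replicate to separate them. The lowest listed were ISG20 in SiHa (0.837 CPM per kilobase) and MX1 in MS751 (0.265).

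The upstream signalling genes had median folds close to 0. Of 37 interferons, receptors, kinases, transcription factors and regulators, the SiHa table held 26 and the MS751 table held 24, and the 9 interferon genes sought were in neither table. The median log2 fold was -0.10 in SiHa, or 0.08 with the GC trend removed, and -0.05 in MS751. In SiHa 1 of the 26 was at least 2-fold lower, against 3.05% of all SiHa genes. It was SOCS1, a feedback inhibitor of JAK kinases, with 43 counts with siDDX24-1 and 97 with siControl (log2 fold -1.28, and -0.91 once the trend on GC content was taken out). In MS751 2 of the 24 were at least 2-fold lower, against 8.55% of all MS751 genes, so both shares were near those of all genes. PTPN6, a phosphatase, had 419 counts with siDDX24-1 and 939 with siControl (log2 fold -1.31, or -0.97 with the GC trend removed). IRF2BP2, a corepressor, had 1562 counts with siDDX24-1 and 3255 with siControl (log2 fold -1.20). The receptor genes IFNAR1 and IFNAR2 had log2 folds of 0.24 and -0.11 in SiHa and 0.27 and -0.13 in MS751.

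A list of 62 further interferon-stimulated genes that are not members showed a smaller difference. In SiHa 52 were listed and 39 had folds below 0, against 50.4% of all SiHa genes. The median log2 fold was -0.31. Of the 52, 3 were at least 2-fold lower and none higher, against 3.05% and 1.46% of all SiHa genes. The 3 were SHFL, an inhibitor of ribosomal frameshifting (563 counts with siDDX24-1 and 1286 with siControl, log2 fold -1.31), BATF2 (34 counts with siDDX24-1 and 65 with siControl, -1.04) and the chemokine gene CCL5 (28 counts with siDDX24-1 and 54 with siControl, -1.04). With the GC trend removed BATF2 was at -0.85 and CCL5 at -0.97, so both calls ended. In MS751 50 were listed and 25 had folds below 0, against 50% of all MS751 genes. The median was -0.02, or 0.04 over genes averaging at least 5 CPM. Of the 50, 4 were at least 2-fold lower, near the share of all MS751 genes (8.55%), and 4 were higher, against 3.74%. Those with the largest folds included APOL1, the trypanosome lytic factor, with 312 counts with siDDX24-1 and 88 with siControl (log2 fold 1.67), and the ubiquitin ligase gene RNF213, with 853 counts with siDDX24-1 and 2084 with siControl (log2 fold -1.43). SLFN5, of the Schlafen family, had 181 counts with siDDX24-1 and 66 with siControl, and UBA7, the activating enzyme of ISG15, had 332 counts with siDDX24-1 and 677 with siControl (log2 fold -1.17). UNC93B1, which carries Toll-like receptors to endosomes, had 450 counts with siDDX24-1 and 884 with siControl (log2 fold -1.12), and ZC3HAV1, the zinc-finger antiviral protein, had 1777 counts with siDDX24-1 and 741 with siControl (log2 fold 1.12). With the GC trend removed UBA7 was at -0.90 and UNC93B1 at -0.58, and both calls ended.

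**Figure D5:**
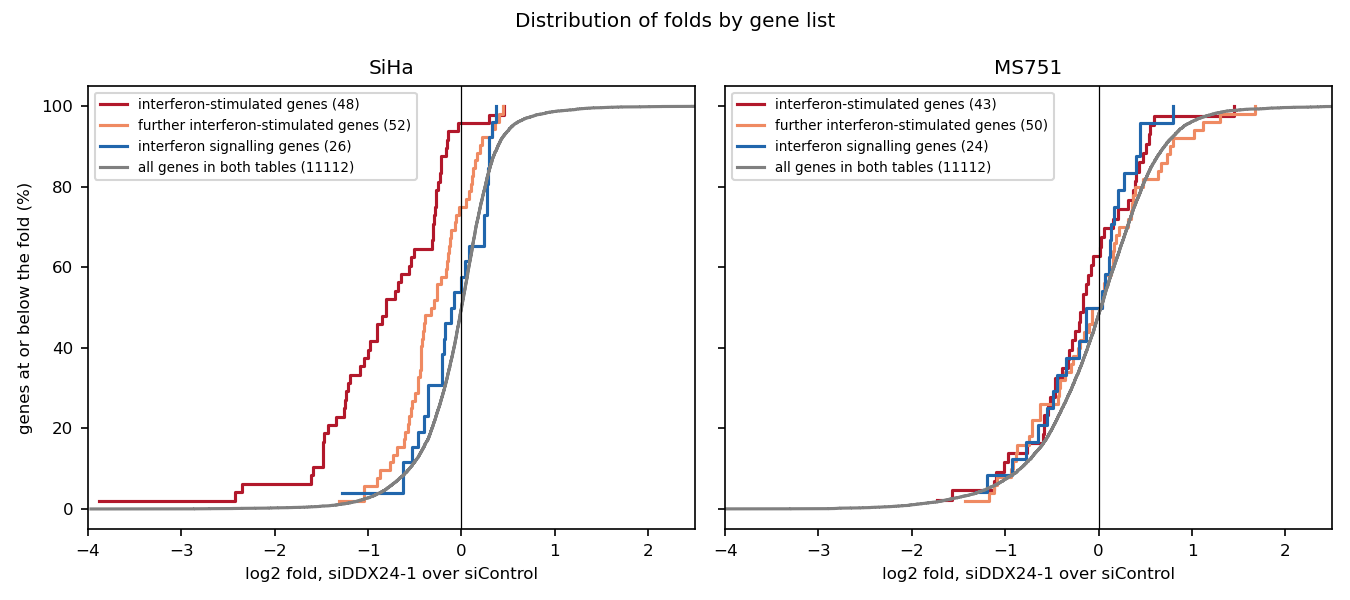
Cumulative share of genes at or below each log2 fold in SiHa (left) and MS751 (right) for the members, the further interferon-stimulated genes, the signalling genes and all 11112 shared genes. In SiHa the members' curve lies left of the others with its median at -0.81; in MS751 the curves lie close together.

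Members with and without a response element core in the promoter had similar median folds, a description with no test. In SiHa the median log2 fold was -0.68 for 25 listed members with the core and -0.62 for 16 without it, and 10 and 5 of them were at least 2-fold lower. In MS751 the medians were -0.02 for 22 members with it and -0.17 for 16 without. SAMD9L and RSAD2, near the bottom in SiHa, had no core in this window, and IFIT5, which carried 3, had a log2 fold of -0.27. Other members went the other way: IFITM1, the lowest in SiHa (-3.88), carried 2 cores and IFI6 (-1.26) carried 3. The 7 members without a matched promoter are not in these medians. Their SiHa log2 folds were -1.59 for OASL, -1.34 for MX2, -1.25 for TRIM22 and -1.04 for OAS2. IFIT2 was at -0.98, USP18 at -0.85 and IFITM2 at 0.29.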

How the data were processed

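RNA-seq libraries of SiHa and MS751 cells were analysed, 1 for each of siDDX24-1 and siControl. The authors deposited a table of raw counts for each line, in whole reads per Ensembl gene, holding only genes above 1 CPM. The submitters' processing notes name GRCh38.p12 and the tools StringTie 1.3.4d, fastp 0.23.2 and HISAT2 2.0.4, without roles. The sources used here do not name the read counter or say whether it used strand. Repeated identical entries (70 in SiHa, 73 in MS751) were dropped. GENCODE 29 on GRCh38 supplied positions, merged exon length, GC content and exon overlaps. The lowest deposited value was 1.017 CPM.

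Levels are CPM on library totals. Folds are log2 CPM differences from edgeR 4.0.16 (R 4.3.3) with TMM factors within a line and a prior count of 1. Intervals are exact conditional intervals at 95% and cover counting error only; PCR copies are not independent molecules. The quasi-likelihood fit used ~ cell line + treatment over the shared genes. Alternatives were other prior counts, scalings and filters, a GC trend removed (mgcv 1.9.3), DESeq2 1.42.0 and limma 3.58.1. The functions were tested on simulated counts. Members and lists were chosen with earlier results of these data known. All members were named, and the genes of the 2 further lists that were past 2-fold. One gene of the signalling list is not reported here by name.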

Additional observations from a re-analysis of the deposited data

Results flagged for a closer look

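For 12 members the counting intervals lay on opposite sides of 0 in the 2 lines, so that their single libraries moved in opposite directions; the difference itself was not tested, since each group holds 1 library. The pattern of a lower SiHa and a higher MS751 knockdown library was seen for 5.98% of all shared genes, and the opposite one for 6.23%. The log2 fold in SiHa minus that in MS751 was, among these 12, furthest from 0 for HERC6 (-1.67), PARP9 (-1.40), CMPK2 (-1.30) and GBP1 (-1.19). It was -0.78 for ADAR, -0.75 for PARP14, -0.59 for IFIT5, -0.55 for DTX3L, -0.52 for HERC5, -0.43 for EIF2AK2 and -0.29 for BST2. IFITM2 had the opposite pattern, with a difference of 0.68. Intervals came closest to 0 for HERC5 in SiHa (-0.30 to -0.01) and CMPK2 in MS751 (0.01 to 0.81). With the GC trend removed the log2 fold of BST2 was 0.01 in SiHa and that of EIF2AK2 was 0.02 in MS751. PARP9 and DTX3L overlap each other, as do IFITM2 and IFITM1, and CMPK2 and RSAD2, and EIF2AK2 overlaps GPATCH11. The knockdown was also deeper in SiHa than in MS751 (DDX24 log2 folds -2.71 and -1.20), which cannot be told apart from the cell line.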

How the results depend on the processing

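Of the values recomputed under an alternative, 72 stayed close to the value reported, 3 moved and 2 changed sign. Some of the 72 could not move, such as those without a filter and those of MS751 over members in both tables. The rule for close was also loose for counts: 20 promoters with the longer core, against 27 with the core, counted as close. With the GC trend removed, 2 MS751 members were at least 2-fold lower, against 5 without that step, and the SiHa median of the signalling list was 0.08. When only genes averaging 5 CPM or more were kept, the MS751 median of the further interferon-stimulated genes was 0.04. Without the members whose exons overlap another gene, an alternative added after the data were seen, 3 MS751 members were at least 2-fold lower. DESeq2 called 3 members in the test common to both lines, against 0 by edgeR and limma-trend; over all shared genes DESeq2 called 71 lower and 26 higher, and edgeR 3 and 2. Without the cell line block edgeR also called 0. In SiHa between 18 and 20 members of the whole set were at least 2-fold lower under the other prior counts, scalings and filters and with the GC trend removed, and their median lay between -0.87 and -0.76. The labels give no replicate numbers, so libraries were paired by cell line alone, which was the block. Leaving out a library would leave no residual degrees of freedom. Filtering at 1 CPM or not gave identical values, since the tables hold only genes above it. Depth limits most the folds of RSAD2, MX1, IFI44, ISG20 and OASL, whose lowest counts were 23, 30, 59, 63 and 67.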
